A study of Homo sapiens with 6 samples.

Results

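This section describes 40 genes of the unfolded protein response and of protein folding in the endoplasmic reticulum (ER). Their RNA was measured by polyA RNA sequencing in human fibroblasts with activated Ras, with and without depletion of the long noncoding RNA sin-lncRNA. Whether the cells were senescent was not tested here. The members were picked by gene symbol for their known roles, with earlier results of these data known. All 40 were found among the 57819 genes of the deposited table. ERO1L and VIMP are older symbols of ERO1A and SELENOS and are written here as the table has them. All 6 libraries came from IMR90 cells, a fibroblast line from human fetal lung, that carry ER:Ras, a Ras oncoprotein fused to an estrogen receptor domain so that 4-hydroxytamoxifen (4OHT) switches it on. All cells were given 4OHT, at 200 nM for 3 days per the labels. The control group (siSCR, n = 3 libraries) received a scrambled siRNA and the knockdown group (sin-lncRNA KD, n = 3) siRNA to sin-lncRNA. All 3 knockdown columns carry the same siRNA name, with an ending that the labels do not explain. Depletion of sin-lncRNA and other effects of that siRNA therefore cannot be told apart. Vehicle-treated cells are not analysed here, so no value below says how these genes differ between proliferating and senescent cells. The labels number the replicates but do not say whether they were separate cultures, so p-values measure the spread between these libraries, which may be technical.

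Proteins that enter the secretory pathway fold inside the ER, where chaperones bind unfolded chains, lectins hold sugar-tagged chains, and oxidoreductases form and reshuffle disulfide bonds. Chains that fail to fold are passed back to the cytosol and destroyed, a route called ER-associated degradation. When unfolded protein builds up, the sensors IRE1 (gene ERN1), PERK (gene EIF2AK3) and ATF6 start the unfolded protein response: IRE1 splices the mRNA of XBP1 into its active form, PERK slows translation by phosphorylating eIF2alpha, and ATF6 is cut to release a transcription factor. Gene-level counts do not separate spliced from unspliced XBP1 mRNA, and they say nothing of phosphorylation or cleavage. Senescent fibroblasts secrete large amounts of protein, which makes this machinery a point of interest in them.

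The libraries held 22117324 to 50913672 reads in genes, with all 3 knockdowns sequenced less deeply than any of the controls, so that depth and group cannot be told apart (a fit to libraries thinned to the smallest total called 25 members). Levels are given as CPM, reads scaled to the library size that the authors used, and rest on a mean of 459.5 reads or more per library for all members but DERL3. The targeted lncRNA was at 3.70, 4.73 and 4.09 CPM in controls 1, 2 and 3 and at 0.493, 0.640 and 0.534 in knockdowns 1, 2 and 3, so the libraries matched their labels. Of 8 fibroblast markers all were present (29.1 CPM for LUM to 6617 CPM for COL1A1 in controls), although 4 of them, COL1A1, COL1A2, VIM and PDGFRB, fell and the other 4 rose. Their summed level was 15194 to 16359 CPM in controls and 10745 to 11166 in knockdowns. Of 11 markers of other cell types, 9 had at most 6 reads in any library, among them KRT5, an epithelial keratin with 0 reads throughout. The epithelial EPCAM had 6 to 22 reads per library and did not pass. The endothelial VWF, at 1.76 ± 0.0813 CPM in controls and 2.37 ± 0.209 in knockdowns (SD, n = 3), rose (log2 fold change 0.42, SE 0.14; limma adjusted p = 0.034). Summed levels were 1.703 to 1.898 CPM in controls and 2.29 to 2.71 in knockdowns for the 3 endothelial markers, 0.294 to 0.533 and 0.314 to 0.463 for the 4 epithelial ones, and 0.133 to 0.206 and 0.128 to 0.249 for the 4 immune ones. The part of other cell types, or of the change in fibroblast markers, in the results below was not tested. In bulk RNA, fewer cells expressing a gene and less of its RNA per cell cannot be told apart.

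Of the 40 members, 24 passed the test, 18 higher and 6 lower in knockdowns (limma, Benjamini-Hochberg adjusted p under 0.05 over all genes tested). Over all 19049 genes tested, 40.9% passed, 17.4% higher and 23.6% lower, and among the 8281 protein-coding genes with a mean of at least 400 reads, a limit chosen after seeing the data and met by 39 of the members, 55.3% passed, 24.5% higher and 30.9% lower. The members' share called in either direction, 60.0%, was close to that of these well-measured genes, but 18 of the 24 called members were higher whereas more of the well-measured genes were lower than higher. The median log2 fold change was 0.09 for the members and -0.04 for all genes tested. Knockdown libraries lay wholly above the controls for 20 members and wholly below for 9, or 29 of 40. The share over all genes tested, which include genes with few reads, was 51.0%. That share was not counted for the well-measured genes alone. Changes were small, between -0.64 for SDF2L1 and 0.90 for PDIA5 on the log2 scale. The 6 that fell were ATF6B, PPP1R15A, SDF2L1, CRELD2, MANF and HERPUD1. Of the abundant ER chaperones HSP90B1 rose, and HSPA5, CALR and CANX did not pass.

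**Figure D1:**
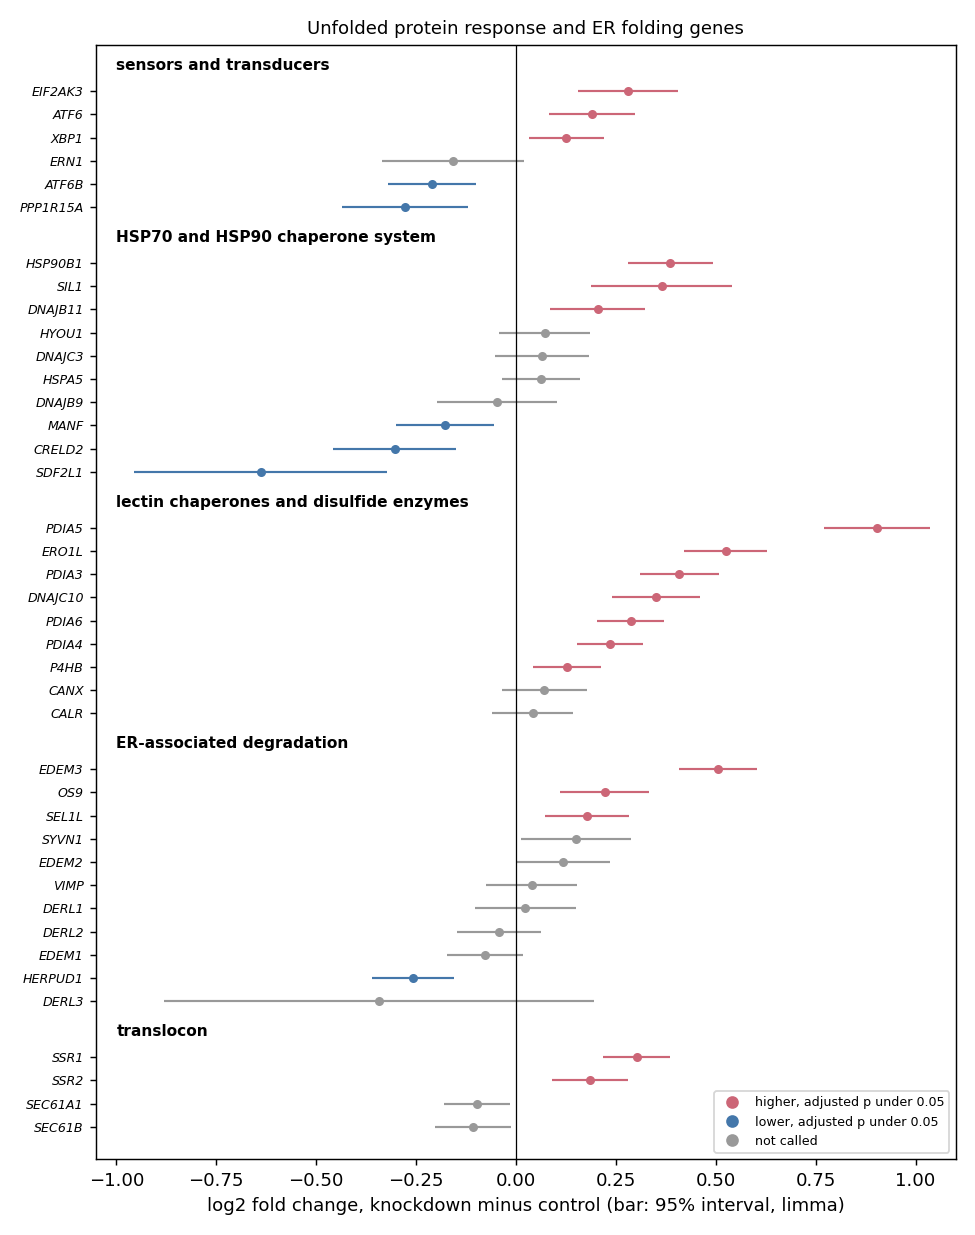
Log2 fold changes (knockdown minus control, x axis) of the 40 members by role, with 95% intervals from limma; red marks members called higher, blue lower and grey not called. The 9 lectin and disulfide genes all lie right of 0, from 0.04 for CALR to 0.90 for PDIA5, whereas the chaperone group spreads from -0.64 to 0.39.

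The promoters of several members are shown because they carry the textbook ER stress elements next to which the changes can be read. The ER stress response element (ERSE) was searched as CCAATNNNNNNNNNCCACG, ERSE-II as ATTGGNCCACG, the core of the XBP1 element (UPRE) as TGACGTGG and the C/EBP-ATF element bound by ATF4 as TGATGNAA, each on both strands of windows around the start site, mostly upstream of it (RefSeq promoters, GRCh38.p14; 300 bases each). Windows were found for 37 members; DERL1, DERL3 and PDIA3 were not matched. ERSE was found in 7 of these 37 members (18.9%) and in 0.0916% of all 27305 genes with a window, counting a gene once if any of its windows matched. ERSE-II was found in 3 members (8.11%) and 0.0696% of genes, the UPRE core in 2 members (5.41%) and 0.927% of genes, and the C/EBP-ATF element in 1 member (2.70%) and 4.46% of genes. The members were picked for known roles in the response to which these textbook elements belong. Their ERSE and ERSE-II shares are therefore background, not a result of these data. In HYOU1 the UPRE core and an ERSE-II overlap. Windows are printed 5′ to 3′ on the gene's strand, with matches in capitals.

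HSPA5, chr9:125241294-125241593, minus strand, 1 ERSE: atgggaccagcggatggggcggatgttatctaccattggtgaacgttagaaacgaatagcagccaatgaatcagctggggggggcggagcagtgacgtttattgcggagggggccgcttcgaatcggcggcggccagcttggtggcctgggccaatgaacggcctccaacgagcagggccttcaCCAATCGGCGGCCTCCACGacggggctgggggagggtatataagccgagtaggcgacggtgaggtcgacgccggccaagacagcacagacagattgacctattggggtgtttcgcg
HSP90B1, chr12:103930160-103930459, plus strand, 2 ERSE: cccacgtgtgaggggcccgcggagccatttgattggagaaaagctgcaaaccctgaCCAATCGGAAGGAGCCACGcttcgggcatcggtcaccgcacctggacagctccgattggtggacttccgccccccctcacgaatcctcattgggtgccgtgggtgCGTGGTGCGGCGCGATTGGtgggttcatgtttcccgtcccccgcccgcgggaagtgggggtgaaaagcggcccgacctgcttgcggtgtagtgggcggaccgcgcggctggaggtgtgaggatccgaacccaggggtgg
CRELD2, chr22:49918384-49918683, plus strand, 1 ERSE: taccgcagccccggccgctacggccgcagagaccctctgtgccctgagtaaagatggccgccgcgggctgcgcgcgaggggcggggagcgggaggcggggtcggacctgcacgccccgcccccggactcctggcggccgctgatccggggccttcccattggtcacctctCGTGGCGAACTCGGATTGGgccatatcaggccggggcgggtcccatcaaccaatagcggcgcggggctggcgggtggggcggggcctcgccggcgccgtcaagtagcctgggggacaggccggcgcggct
SDF2L1, chr22:21642052-21642351, plus strand, 1 ERSE-II: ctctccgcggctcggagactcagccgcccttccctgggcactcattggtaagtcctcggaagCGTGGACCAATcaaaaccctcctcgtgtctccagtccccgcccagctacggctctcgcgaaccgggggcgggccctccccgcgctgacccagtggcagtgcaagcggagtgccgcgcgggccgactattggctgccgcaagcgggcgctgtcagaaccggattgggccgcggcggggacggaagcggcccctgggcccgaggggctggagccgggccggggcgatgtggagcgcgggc
HERPUD1, chr16:56931892-56932191, plus strand, 1 ERSE-II and 1 C/EBP-ATF element: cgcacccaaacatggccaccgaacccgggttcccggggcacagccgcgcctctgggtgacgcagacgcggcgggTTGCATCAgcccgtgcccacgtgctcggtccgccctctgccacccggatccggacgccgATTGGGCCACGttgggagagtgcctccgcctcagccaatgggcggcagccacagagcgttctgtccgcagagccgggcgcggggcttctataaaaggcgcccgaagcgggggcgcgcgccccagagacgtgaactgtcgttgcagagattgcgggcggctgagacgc
PDIA5, chr3:123066775-123067074, plus strand, no match: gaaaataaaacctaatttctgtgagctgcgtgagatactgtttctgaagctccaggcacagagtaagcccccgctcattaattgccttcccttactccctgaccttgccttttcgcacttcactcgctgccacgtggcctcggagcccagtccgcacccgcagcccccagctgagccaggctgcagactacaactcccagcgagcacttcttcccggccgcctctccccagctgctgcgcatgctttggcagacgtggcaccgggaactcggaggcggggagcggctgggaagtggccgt

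The 7 members with an ERSE did not share a direction. HSP90B1 (log2 fold change 0.39), PDIA6 (0.29) and XBP1 (0.13) rose, CRELD2 (-0.30) fell, and HSPA5 (0.06), CANX (0.07) and CALR (0.04) did not pass. Of the 3 members with an ERSE-II, SDF2L1 (-0.64) and HERPUD1 (-0.26) fell and HYOU1 (0.07) did not pass. The members with the largest rises, PDIA5, ERO1L and EDEM3, had no match in these windows. A match is a run of letters, not a measured binding site.

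Among the 6 sensors and transducers, EIF2AK3, ATF6 and XBP1 were called higher and ATF6B and PPP1R15A lower. EIF2AK3, which encodes the sensor kinase PERK (ENSG00000172071.7, chromosome 2, 88856259 to 88927094 in the table's coordinates, hg19 per the submitters' processing notes), was at 23.0, 23.1 and 22.3 CPM in the controls and 28.7, 27.6 and 26.8 in the knockdowns. The lowest knockdown lay above the highest control, and the log2 fold change was 0.28 (SE 0.06; limma adjusted p = 0.0025). ATF6, the sensor that becomes a transcription factor, was at 62.8, 68.3 and 65.5 CPM in controls and 76.3, 75.3 and 72.8 in knockdowns. The ATF6 groups did not overlap either (log2 fold change 0.19, SE 0.05; limma adjusted p = 0.0091). Its paralog ATF6B moved the other way, from 54.8, 58.9 and 55.2 CPM to 47.7, 49.6 and 48.6, all 3 knockdowns below all 3 controls (log2 fold change -0.21, SE 0.05; limma adjusted p = 0.0061).

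ERN1, the gene of the sensor IRE1, was at 14.2, 15.8 and 15.7 CPM in controls and 13.1, 15.0 and 12.97 in knockdowns. Knockdown 2 lay inside the control range, and the difference did not pass (log2 fold change -0.16, 95% interval -0.33 to 0.02). XBP1, the transcription factor downstream of IRE1, was at 83.9, 82.4 and 85.4 CPM in controls and 92.3, 92.8 and 89.6 in knockdowns. The XBP1 groups did not overlap, but the rise was only 1.09-fold (log2 fold change 0.13, SE 0.04; limma adjusted p = 0.036), and the call was lost with any 1 library left out (log2 fold change 0.11 to 0.14). PPP1R15A encodes GADD34, which brings a phosphatase to eIF2alpha and so ends the PERK signal. It was at 81.8, 88.4 and 95.1 CPM in controls and 65.9, 75.9 and 77.1 in knockdowns, every knockdown below every control (log2 fold change -0.28, SE 0.07; limma adjusted p = 0.0093). Without control replicate 3 the value for PPP1R15A was -0.22 and the call was lost.

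**Figure D2:**
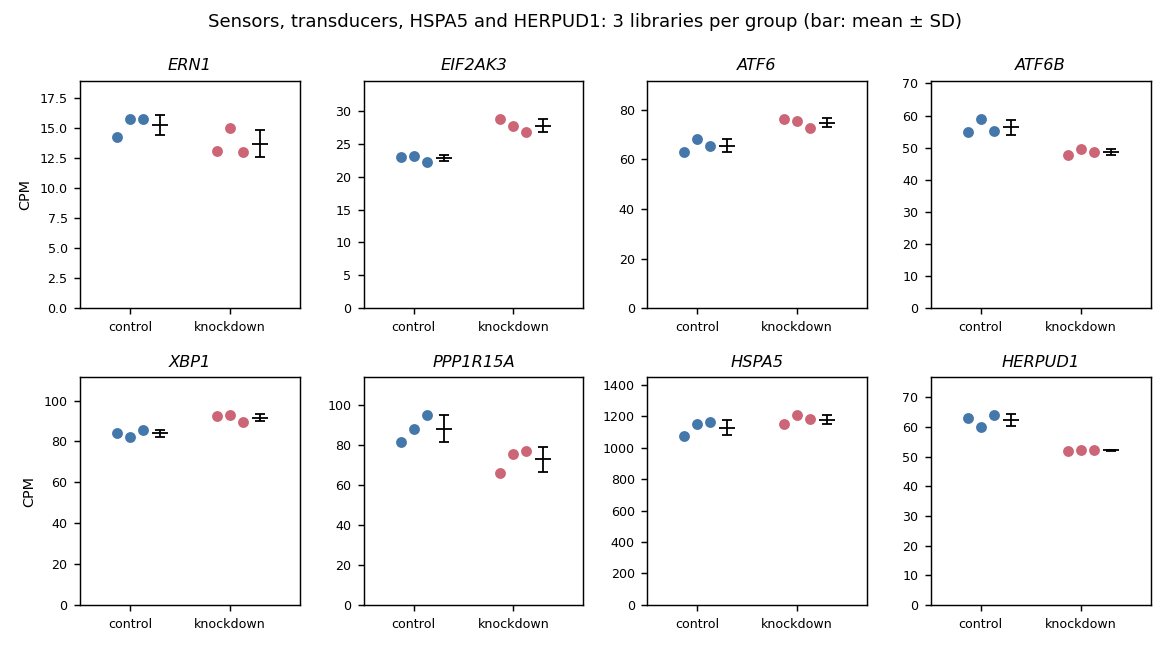
CPM (y axis, from 0) of the 6 sensors and transducers, HSPA5 and HERPUD1 in each of the 3 control (blue) and 3 knockdown (red) libraries, with black bars for the mean ± SD. EIF2AK3, ATF6 and XBP1 lie higher in knockdowns, ATF6B, PPP1R15A and HERPUD1 lower, and the groups of ERN1 and HSPA5 overlap.

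The chaperones built around ER HSP70 and HSP90 split into 3 that rose, 3 that fell and 4 that did not pass. HSPA5 (BiP), the HSP70 of the ER and the usual readout of ER stress, was at 1074, 1150.1 and 1161 CPM in controls and 1149, 1206 and 1180.3 in knockdowns. The groups overlapped, and the log2 fold change was 0.06 (95% interval -0.03 to 0.16; limma adjusted p = 0.28). HSP90B1 (GRP94), the HSP90 of the ER, with 2 ERSE matches in the window above, was at 718, 801 and 795 CPM in controls against 1006, 990.2 and 1025 in knockdowns (ENSG00000166598.8, chromosome 12, 104323885 to 104347423). All knockdowns exceeded all controls by far more than the spread within a group, a 1.31-fold rise (log2 fold change 0.39, SE 0.05; limma adjusted p = 0.00010). HSP90B1 had the highest level per length among the members that rose, 164 CPM per kb of exon in controls and 215 in knockdowns, whereas HSPA5 was at 289 and 302. SIL1, a nucleotide exchange factor for BiP, was at 34.4, 30.8 and 34.1 CPM in controls and 38.3, 47.9 and 42.1 in knockdowns (log2 fold change 0.36, SE 0.08; limma adjusted p = 0.0041). SIL1 overlaps MATR3 on the opposite strand, a gene with 726% of its reads that itself had a log2 fold change of 0.16, and whether any of those reads were counted for SIL1 was not tested.

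SDF2L1, a small partner of ER J-proteins that keeps clients from aggregating, fell most of the 40 members. It was at 20.4, 16.0 and 21.6 CPM in controls and 9.82, 14.4 and 13.1 in knockdowns (ENSG00000128228.4, chromosome 22, 21996550 to 21998587). The groups did not overlap but were spread, and the level was 1.56-fold lower in knockdowns (log2 fold change -0.64, SE 0.14; limma adjusted p = 0.0046). CRELD2, a secreted ER stress-inducible protein, was at 33.3, 28.1 and 32.1 CPM in controls and 24.7, 25.2 and 25.6 in knockdowns (log2 fold change -0.30, SE 0.07, limma adjusted p = 0.0051). CRELD2 overlaps ALG12 on the opposite strand, a gene with 42.8% of its reads and a log2 fold change of 0.08. MANF, another secreted ER stress-inducible factor, went from 72.1 ± 2.83 to 63.8 ± 3.89 CPM (SD, n = 3; limma adjusted p = 0.026; log2 fold change -0.18), and lost its call without control replicate 2 or 3 or knockdown replicate 1 or 3 (log2 fold change -0.22 to -0.14 over all 6 leave-outs).

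DNAJB11, a J-protein that hands clients to BiP, rose from 95.1 ± 3.97 to 109.6 ± 6.25 CPM (SD, n = 3; log2 fold change 0.20). Without knockdown replicate 3 it was 0.17 and not called. The other members of the chaperone group did not pass: HYOU1 (log2 fold change 0.07), an HSP110-type exchange factor, DNAJC3 (0.07), a J-protein that also inhibits PERK, and DNAJB9 (-0.05), a J-protein that represses IRE1. DNAJB9 was at 26.4, 29.2 and 30.7 CPM in controls and 28.2, 28.8 and 26.4 in knockdowns, with overlapping groups, and its sign was positive under quantile normalization (0.0023).

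The lectin chaperones and disulfide enzymes were the most uniform in direction of the role groups, with 7 of 9 higher and 0 lower. Their median log2 fold change was 0.29. Among the well-measured protein-coding genes 24.5% were higher and 30.9% lower, and over all genes tested 17.4% and 23.6%. With the trend over GC and length removed, the uncalled CANX changed sign (-0.019). PDIA5, a disulfide isomerase, had the largest change of all members (ENSG00000065485.13, chromosome 3, 122785909 to 122944074). It was at 26.2, 24.7 and 23.6 CPM in controls and 44.3, 48.3 and 46.7 in knockdowns. The lowest knockdown was well above the highest control, and the rise was 1.87-fold (log2 fold change 0.90, SE 0.06; limma adjusted p = 1.4e-06). PDIA5 overlaps SEC22A on the same strand, which has 39.0% of its reads and a log2 fold change of 0.18 (limma adjusted p = 0.069). ERO1L, the oxidase that recharges disulfide isomerases, was at 61.9, 66.3 and 65.7 CPM in controls and 94.2, 90.8 and 93.9 in knockdowns (ENSG00000197930.8, chromosome 14, 53106634 to 53162618). This was a 1.44-fold rise with no overlap (log2 fold change 0.52, SE 0.05; limma adjusted p = 1.0e-05).

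PDIA3 (ERp57), the isomerase that works with calnexin and calreticulin on glycoproteins, was at 276, 298 and 299.7 CPM in controls and 398, 379 and 384 in knockdowns, again without overlap (log2 fold change 0.41, SE 0.04; limma adjusted p = 4.2e-05). Its pseudogene PDIA3P carried 84.5% as many reads as PDIA3 and had a log2 fold change of 0.37, so the split of reads between the 2 copies is uncertain. DNAJC10 (ERdj5), a J-protein with reductase activity that unlocks disulfides before degradation, was at 137, 147 and 150.0 CPM in controls and 193, 183 and 177 in knockdowns (log2 fold change 0.35, SE 0.05; limma adjusted p = 0.00026). PDIA6 (log2 fold change 0.29), PDIA4 (0.24) and P4HB (0.13), further disulfide isomerases, also rose, and for each of them all 3 knockdowns lay above all 3 controls. P4HB, which is also the beta subunit of collagen prolyl 4-hydroxylase, lost its call without control replicate 3 or knockdown replicate 2 or 3 (0.11 to 0.15 over the leave-outs).

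CALR (calreticulin) and CANX (calnexin), the lectins that hold glycoproteins while they fold, did not pass. CALR was at 1043, 1133 and 1124 CPM in controls and 1115, 1106 and 1175 in knockdowns, and the groups overlapped (log2 fold change 0.04, 95% interval -0.06 to 0.14). CANX had a log2 fold change of 0.07 (95% interval -0.04 to 0.18). Per kb of exon CALR was the most abundant of the 40 members, at 405 CPM per kb in controls, and ERN1, at 1.40, was the lowest but for DERL3, at 0.181. Summed over the 9 lectin and disulfide genes, levels were 3605 to 3836 CPM in the controls and 4123 to 4246 in the knockdowns.

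**Figure D3:**
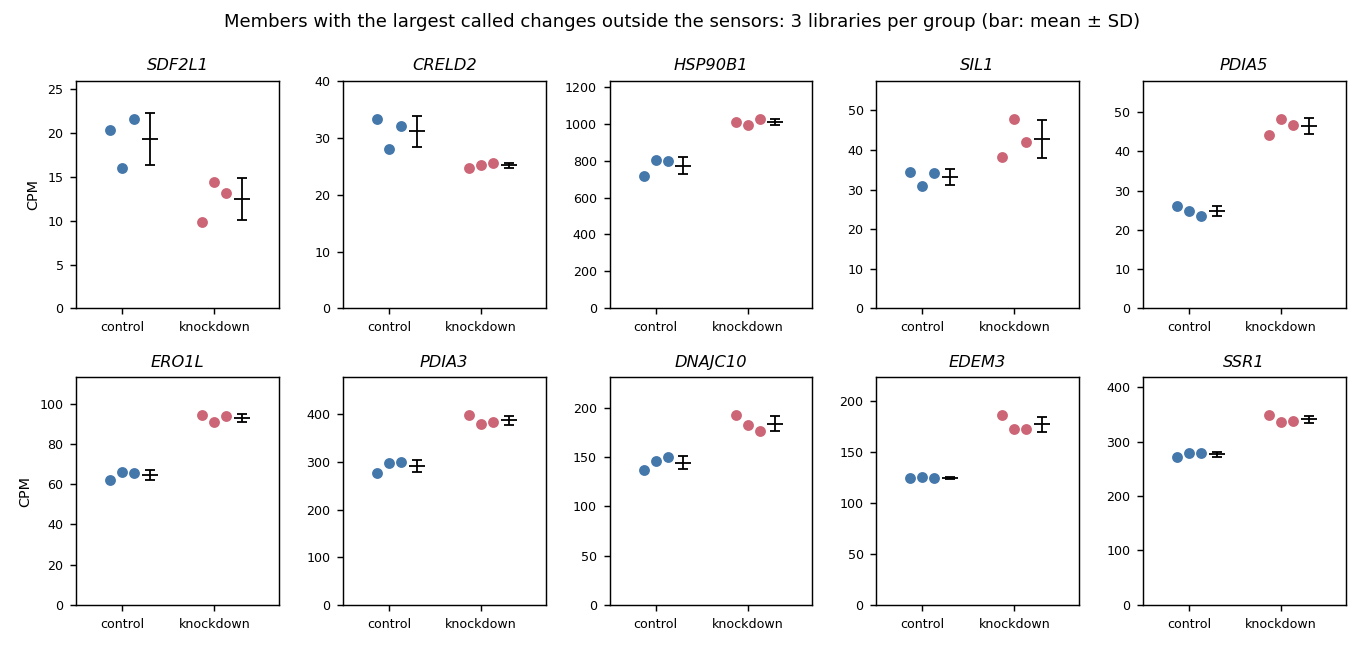
CPM (y axis, from 0) in each of the 3 control (blue) and 3 knockdown (red) libraries for the 10 members that were called and moved by 0.3 or more on the log2 scale in either direction, with black bars for the mean ± SD. SDF2L1 and CRELD2 are lower in knockdowns and the other 8 higher, and in none of the 10 do the groups overlap.

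In ER-associated degradation 3 of 11 members were higher, 1 was lower and 7 were not called; with the trend over GC and length removed, 7 were called, 4 higher and 3 lower. EDEM3, which trims mannose from misfolded glycoproteins and so marks them for disposal, was at 124, 125 and 124 CPM in controls and 186, 173 and 172 in knockdowns (ENSG00000116406.14, chromosome 1, 184659365 to 184724047). The controls were almost equal and all knockdowns stood above them, a 1.42-fold rise (log2 fold change 0.51, SE 0.04; limma adjusted p = 8.9e-06). Its paralogs EDEM1 (log2 fold change -0.08) and EDEM2 (0.12) did not pass. OS9, a lectin that delivers glycans to the degradation complex (log2 fold change 0.22), and SEL1L, the adaptor of that complex (0.18), rose. SYVN1 (HRD1), its ubiquitin ligase, did not pass (0.15; limma adjusted p = 0.075), and it overlaps FAU on the same strand, with 222% of its reads. It passed without knockdown replicate 1 (0.20).

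HERPUD1, a membrane protein that organizes the degradation complex and is strongly induced by ER stress, was at 63.1, 60.0 and 63.9 CPM in controls and 52.0, 52.3 and 52.1 in knockdowns. The knockdowns were almost equal and below every control (log2 fold change -0.26, SE 0.05; limma adjusted p = 0.0013). The membrane channel candidates DERL1 (log2 fold change 0.02) and DERL2 (-0.04) and their partner VIMP (0.04) did not pass. DERL1 was at 60.3, 69.1 and 66.7 CPM in controls and 64.5, 66.3 and 68.1 in knockdowns, so that the knockdowns lay inside the control range. DERL3 had a mean of 19.5 reads per library and lies opposite SMARCB1, whose reads are far more numerous. It was at 0.656 to 0.734 CPM in controls and 0.427 to 0.598 in knockdowns, and its interval was wide (log2 fold change -0.34, 95% interval -0.88 to 0.20).

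In the translocon, through which chains enter the ER, the pore and its accessory complex differed in call. SSR1, the alpha subunit of the translocon-associated protein complex, was at 272, 279 and 278 CPM in controls and 349, 336 and 338 in knockdowns (log2 fold change 0.30, SE 0.04; limma adjusted p = 0.00012). SSR2, the beta subunit, also rose (0.19; limma adjusted p = 0.0056). SEC61A1, the pore itself, was at 876, 909 and 882 CPM in controls and 828, 834 and 829 in knockdowns. All knockdowns were below all controls, but the difference did not pass (log2 fold change -0.10; limma adjusted p = 0.057); without control replicate 1 it did (-0.11). SEC61B, a small pore subunit, was similar (-0.11; limma adjusted p = 0.068). The difference between the accessory and the pore genes was not tested.

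GC content differed between members that rose and members that fell, and transcript length less clearly. The longest GENCODE transcripts of the 18 members that rose had a median GC content of 42.7% (range 37.4% to 58.5%). Their median length was 3974.5 nt (1923 to 20129). Those of the 6 that fell had medians of 56.1% GC (47.9% to 65.5%) and 2500 nt (865 to 2946). The 16 members not called lay between in median GC, at 48.4%, but had the longest median, 4058.5 nt. These differences were not tested. With the trend over GC and length removed from all genes, 15 members were higher and 10 lower. The calls of ATF6 (log2 fold change 0.05), XBP1 (0.09), DNAJB11 (0.09), SEL1L (0.02) and SSR2 (0.10) were lost, DNAJC10 went to 0.13, SSR1 to 0.14 and SDF2L1 to -0.38, the last 3 still called. ERN1 (-0.25), EDEM1 (-0.18), DERL2 (-0.15) and SEC61A1 (-0.10) were then called lower, and SYVN1 (0.17) and EDEM2 (0.17) higher. PDIA5 (0.91), SIL1 (0.47), ERO1L (0.40), EDEM3 (0.36), PDIA3 (0.35), HSP90B1 (0.32), CRELD2 (-0.27) and HERPUD1 (-0.29) were called in the same direction as before.

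**Figure D4:**
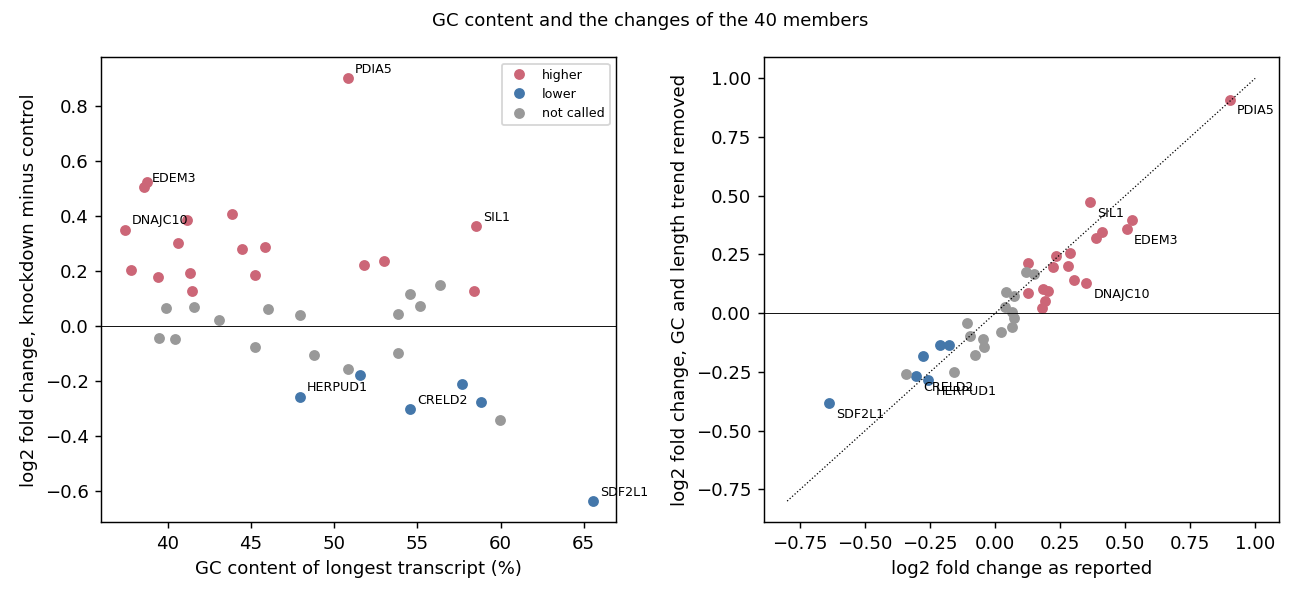
Left, GC content of each member's longest transcript (x axis, percent) against its log2 fold change (y axis, knockdown minus control). Right, the log2 fold change as reported (x axis) against the one with the trend over GC and length removed (y axis), with a dotted line of equality. Most members that rose lie under 50% GC, PDIA5 stays at 0.91 and DNAJC10 drops to 0.13.

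The wider ER pathway was counted in 10 further lists of 153 genes, 149 of them tested, of which 52 were higher and 37 lower. Together 59.7% of them were called, near the 55.3% of well-measured protein-coding genes, of which 24.5% were higher and 30.9% lower. Over all genes tested, which include genes with few reads, 17.4% were higher and 23.6% lower. The counts of each list can be read against these shares. These lists, too, were chosen with earlier results of these data known. Enzymes that modify collagen in the ER had 12 of 15 members higher and 1 lower, with a median log2 fold change of 0.39. LEPRE1, a prolyl 3-hydroxylase, rose from 185 ± 6.74 to 343 ± 27.4 CPM (SD, n = 3; log2 fold change 0.89), and PLOD3, a lysyl hydroxylase, fell (-0.17). Genes for attaching N-glycans and trimming their glucose had 9 of 13 higher and 2 lower. RPN2, a subunit of the oligosaccharyltransferase, rose (0.49), and MLEC, a lectin of early glycans, fell (-0.55). Of the other disulfide and peroxide enzymes, 6 of 15 were higher, among them PRDX4, an ER peroxiredoxin (0.51), and 2 lower, among them TMX2 (-0.24).

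In the list of the PERK branch and eIF2alpha, 6 of 15 genes were higher and 4 lower. This list also holds the other eIF2alpha kinases, EIF2AK1, EIF2AK2 and EIF2AK4, so its counts are not those of the PERK branch alone. ATF3, a stress-induced transcription factor, rose from 3.76 ± 0.207 to 12.4 ± 0.894 CPM (SD, n = 3; log2 fold change 1.72, SE 0.09). The 4 that fell, named after their values were seen, were CHAC1 (-0.63), TRIB3 (-0.55), DDIT3 (-0.53), which encodes the stress factor CHOP, and SESN2 (-0.18). ATF4, a transcription factor of the PERK branch likewise singled out afterwards, had a log2 fold change of 0.26 at the RNA level (limma adjusted p = 0.00054). The other genes of this list called higher were BBC3 (0.61), PPP1R15B (0.43, SE 0.05), DDIT4 (0.43, SE 0.12) and EIF2AK2 (0.23). For DDIT4 the groups overlapped, with knockdown 1 at 18.9 CPM and control 1 at 19.3. Among sensor partners and the CREB3 family, 4 of 16 were higher, with MBTPS1, the protease that makes the first cut in ATF6, at 0.41, and 4 lower, with CREB3L4 at -0.49. The remaining ER-associated degradation genes had 5 of 19 higher (HERPUD2 0.25) and 4 lower (FAF2 -0.21). The remaining translocon, signal recognition and signal peptidase genes had 5 of 21 higher (SSR4 0.33) and 7 lower (SRPRB -0.36), and ER exit and retrieval had 5 of 17 higher (LMAN1, a cargo lectin, 0.51) and 2 lower (SAR1A, a GTPase of the vesicle coat, -0.71).

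**Figure D5:**
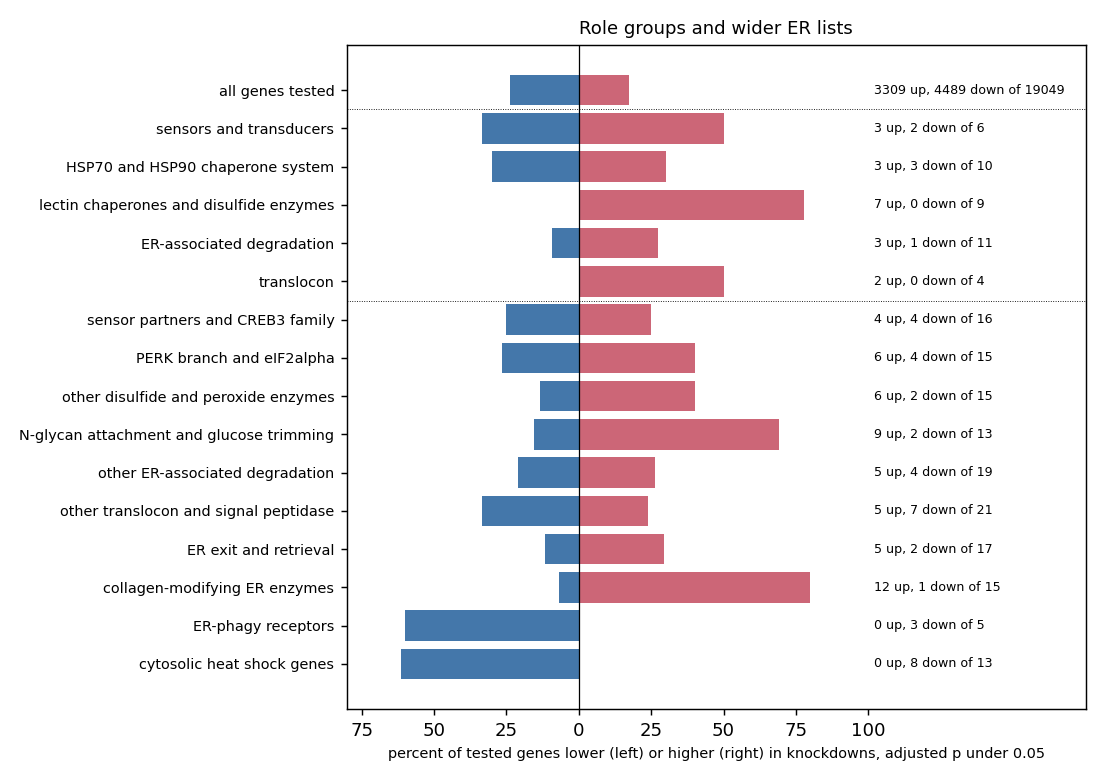
Percent of tested genes called lower (blue, left) or higher (red, right) in knockdowns for all genes tested, the 5 role groups of the 40 members and the 10 further lists, with counts at the right. Lectin and disulfide genes (7 of 9 higher), N-glycan genes (9 of 13) and collagen-modifying enzymes (12 of 15) stand to the right. The list labelled cytosolic heat shock genes, which also holds mitochondrial ones, stands to the left (8 of 13 lower).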

How the data were processed

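PolyA RNA of 6 libraries was sequenced as single 50 bp reads. The submitters' processing notes name Bowtie2, featureCounts and hg19, with no versions. The strand setting is not given in the sources used here, so reads of overlapping genes cannot be told apart. Of the members, 28 overlap a listed gene, 9 of them one with at least 20% of their reads. These 9 are SIL1, DNAJB9, CRELD2, PDIA5, SYVN1, EDEM2, DERL2, DERL3 and SSR1. The authors deposited log2 CPM values: undoing an offset of 0.5 reads gave whole reads for 100% of values (tolerance 1e-06), with effective library sizes 0.989 to 1.01 times the totals. Coordinates of genes are the table's, those of promoters GRCh38.p14.

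The log2 values were fitted with limma 3.58.1 (R 4.3.3; eBayes with intensity trend, two-sided) over genes with a mean of at least 10 reads, with Benjamini-Hochberg adjustment over all of them. An exact permutation test of 3 against 3 cannot go below p = 0.1 and was not used. The fit was tested on simulated counts in which 200 genes changed 2-fold, with the same spread set for every gene. It recovered 85.5% of them, and 4.47% of its calls were false. All members changed by less than 2-fold, so the share recovered need not hold for them. Fold changes are on the log2 scale with the 0.5 offset. Levels per kb use the union of GENCODE 29 exons.

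Members and lists were chosen with earlier results of these data known. Values in every library are given for the sensors, HSPA5, called members of other groups that moved by 0.3 or more on the log2 scale, and the smallest change of each group; from each further list the largest called rise and fall with a mean of at least 50 reads are named. Replicates were not closer than sampling noise (chi-square per degree of freedom 2.87 to 11.0). Intervals and floors cover counting error or the spread between libraries only. No list was tested as a set. One list gene was matched through a name table, and the endothelial marker PECAM1 was not used here.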

Additional observations from a re-analysis of the deposited data

How the results depend on the processing

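The 24 calls were recomputed in 17 other fits: 16 members were called with the same direction in all of them (12 higher, 4 lower), 8 lost the call in at least 1, and 7 uncalled members gained one. Leaving out 1 library at a time gave 20 to 24 members called (15 to 18 higher, 4 to 7 lower). The number was 18 without the intensity trend, 25 with voom, 25 after thinning every library to the smallest total and 19 at an adjusted p under 0.01. With the GC and length trend removed 10 members were lower, against 6, and by role group there were 1 higher among sensors, 7 called and 3 lower in ER-associated degradation and 1 higher and 1 lower in the translocon. Voom, robust eBayes and a minimum mean of 50 reads each called 1 translocon member lower. Without the intensity trend 3 sensors were called, 1 of them lower, and under quantile normalization 5 degradation members were higher. With a library left out, translocon members called lower numbered 0 to 1 sensors called 3 to 4 and sensors called lower 1 to 2. Members with no call changed sign in some fits: DNAJB9 to 0.0023 under quantile normalization and, over the leave-outs, -0.11 to 0.0011, DERL1 to -0.079 after the GC and length correction and, over the leave-outs, -0.033 to 0.065, and DNAJC3 to -0.060 and CANX to -0.019 after that correction. The cause was not tested. With no filter on reads the median change over all genes rose to 0.60 (log2), since genes without reads take a higher value in shallower libraries.

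The labels share replicate numbers between groups. Deviations of same-numbered libraries from their group means correlated at -0.15, -0.19 and 0.06. With 3 libraries per group these values cannot decide whether the libraries were handled as pairs. With the replicate block 22 members were called, 16 higher and 6 lower. Depth limits DERL3, with 19.5 reads on average.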

Other observations

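Of 13 cytosolic and mitochondrial heat shock genes tested, 0 were higher, 8 were lower and 5 did not pass (limma, adjusted p under 0.05). Their median log2 fold change was -0.21. The share lower was 23.6% of all genes tested and 30.9% of the well-measured protein-coding genes. DNAJB1, a J-protein that works with cytosolic HSP70, went from 169 ± 2.93 to 124 ± 0.384 CPM (SD, n = 3; log2 fold change -0.44), and HSPA8, the constitutive cytosolic HSP70, from 2177 ± 185 to 1753 ± 23.9 CPM (-0.31). HSPD1 and HSPE1, the mitochondrial chaperonins, had log2 fold changes of -0.31 and -0.30. The difference between the ER chaperones and these cytosolic and mitochondrial ones was not tested.

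Of 5 listed receptors for the autophagy of ER that were tested, 0 were higher and 3 lower. For comparison, 23.6% of all genes tested and 30.9% of the well-measured protein-coding genes were lower. ATL3, a membrane-fusing GTPase, went from 113 ± 4.12 to 72.7 ± 5.04 CPM (SD, n = 3; log2 fold change -0.63), TEX264 had a log2 fold change of -0.49 and CALCOCO1 of -0.47, and RTN3 and CCPG1 did not pass.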
